A study of Rattus norvegicus with 24 samples.

Results

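The nuclear-encoded subunits of the mitochondrial respiratory chain and of ATP synthase were followed in thoracic propriospinal (TPS) neurons after spinal transection. Members were chosen by symbol alone: every probe whose single gene symbol on the array annotation begins with Ndufa, Ndufb, Ndufc, Ndufs, Ndufv, Sdh, Uqcr, Cox4, Cox5, Cox6, Cox7, Cox8 or Atp5. The rule was met by 94 probes of 83 genes, and the probe with the highest mean represented each gene. A probe was tested where its mean log2 intensity was above 5.05, the lowest 15 percent of all probes. Sdhaf1, with a mean of 4.89, did not pass, which left 82 members among 23240 tested probes of 27342 on the array. They comprise 34 genes of complex I, 4 of complex II, 7 of complex III, 16 of complex IV, 16 of complex V (ATP synthase) and 5 assembly factors that carry an Nduf or Sdh symbol. Among them Ndufs6-ps1, counted in complex I, and Cox6c-ps1, counted in complex IV, carry pseudogene symbols. No measured value entered the choice apart from this low filter and the choice of probe.

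The arrays came from 24 female Long Evans rats of 77 ± 10 days, with 1 array for each animal. All animals, controls included, had received Fluoro-Gold into the lumbosacral enlargement, and labelled neurons were cut by laser from the intermediate gray matter of the thoracic cord above the lesion level. Transected animals, in which the cord was severed completely at T9 a week after labelling, numbered 12. Tissue was taken from 4 of them after 3 days and from another 4 after 1 week, while the later times, 2 weeks and then 1 month, have 2 animals each. The other 12 animals were uninjured controls, 4 for each of the labels 4 days, 2 weeks and 1 month. The 3-day and 1-week animals share the 4-day controls, so these comparisons are not independent of each other. By the study's table the 1-week animals were dissected longer after labelling than these controls. Matched controls below are those the study compared with each group, and at 1 week they are not matched in time since labelling. Arrays of pooled cells measure a mixture: fewer cells of a type and less RNA per cell cannot be told apart.

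The respiratory chain sits in the inner mitochondrial membrane. Complex I (NADH dehydrogenase) and complex II (succinate dehydrogenase) pass electrons to ubiquinone, complex III hands them to cytochrome c, complex IV reduces oxygen, and complex V uses the resulting proton gradient to make ATP. Neurons depend on this pathway for ion pumping and axonal transport. Nearly all subunits are encoded in the nucleus, and nuclear respiratory factors, among them NRF1 and the ETS family factor GABP, are known regulators of such genes. The subunits encoded in mitochondrial DNA were not analysed here.

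Promoters are shown for members that passed the adjusted threshold in a comparison described below, because they let a reader see sequence features that the choice of members did not use. RefSeq promoter windows (build GRCr8, 250 bases before to 50 after the start) were found for 72 of the 82 members. The printed part is the 250 bases before the start, 5′ to 3′ on the gene's own strand. Ndufa11 (chr9:1637364-1637613, plus strand), Ndufab1 (chr1:186089337-186089586, minus strand) and Ndufb10 (chr10:14255967-14256216, minus strand) changed 3 days after transection. Atp5f1d (chr7:10214351-10214600, minus strand), Sdha (chr1:30764303-30764552, plus strand), Ndufv1 (chr1:210734892-210735141, minus strand), Cox7a2l (chr6:16936324-16936573, plus strand), Uqcrc1 (chr8:118467973-118468222, plus strand) and Atp5mc2 (chr7:135678219-135678468, minus strand) differed between control groups. Of the other called members, Ndufa8 and Uqcr11 had no window among the 72, and the window of Atp5f1a, with an ETS match at -60 to -54 from the start, is not printed. Capitals mark matches to the motifs described next, and a lone capital at the 3′ end begins a match that runs past the start of the gene.
Ndufa11: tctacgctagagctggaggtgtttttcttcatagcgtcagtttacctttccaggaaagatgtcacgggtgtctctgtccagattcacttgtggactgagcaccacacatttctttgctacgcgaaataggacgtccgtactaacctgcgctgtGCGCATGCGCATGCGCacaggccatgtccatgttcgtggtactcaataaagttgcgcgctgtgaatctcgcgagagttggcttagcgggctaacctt
Ndufab1: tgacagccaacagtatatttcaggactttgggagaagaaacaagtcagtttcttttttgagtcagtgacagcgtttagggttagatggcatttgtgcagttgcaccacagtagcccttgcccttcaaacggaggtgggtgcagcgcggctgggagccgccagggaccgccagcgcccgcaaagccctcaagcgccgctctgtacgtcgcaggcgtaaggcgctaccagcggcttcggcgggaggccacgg
Ndufb10: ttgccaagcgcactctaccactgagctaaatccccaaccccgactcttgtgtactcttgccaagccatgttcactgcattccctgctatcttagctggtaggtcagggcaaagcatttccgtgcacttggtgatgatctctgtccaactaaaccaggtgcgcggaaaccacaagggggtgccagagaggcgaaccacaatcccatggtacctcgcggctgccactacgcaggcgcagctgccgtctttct
Atp5f1d: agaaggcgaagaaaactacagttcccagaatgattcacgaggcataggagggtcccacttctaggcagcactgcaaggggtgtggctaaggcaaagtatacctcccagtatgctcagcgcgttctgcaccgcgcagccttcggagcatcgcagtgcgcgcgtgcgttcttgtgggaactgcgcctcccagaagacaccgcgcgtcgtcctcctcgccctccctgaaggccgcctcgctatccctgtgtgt
Sdha: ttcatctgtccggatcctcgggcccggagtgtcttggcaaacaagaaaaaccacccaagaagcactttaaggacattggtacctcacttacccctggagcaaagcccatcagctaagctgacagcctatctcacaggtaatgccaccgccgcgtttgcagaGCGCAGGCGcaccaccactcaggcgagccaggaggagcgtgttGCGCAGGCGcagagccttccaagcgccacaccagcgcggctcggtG
Ndufv1: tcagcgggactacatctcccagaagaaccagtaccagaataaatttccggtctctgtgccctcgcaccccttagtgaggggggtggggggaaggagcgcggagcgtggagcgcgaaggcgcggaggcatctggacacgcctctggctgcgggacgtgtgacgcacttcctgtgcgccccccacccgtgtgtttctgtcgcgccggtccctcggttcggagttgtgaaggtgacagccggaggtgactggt
Cox7a2l: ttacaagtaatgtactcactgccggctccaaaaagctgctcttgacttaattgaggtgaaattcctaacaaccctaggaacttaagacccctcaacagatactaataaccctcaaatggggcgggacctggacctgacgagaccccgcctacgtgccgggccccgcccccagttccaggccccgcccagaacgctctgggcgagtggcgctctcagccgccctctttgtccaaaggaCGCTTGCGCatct
Uqcrc1: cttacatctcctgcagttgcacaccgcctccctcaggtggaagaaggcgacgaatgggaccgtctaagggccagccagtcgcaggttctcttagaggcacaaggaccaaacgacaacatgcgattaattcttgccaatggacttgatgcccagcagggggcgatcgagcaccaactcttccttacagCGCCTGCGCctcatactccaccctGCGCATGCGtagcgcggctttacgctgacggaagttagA
Atp5mc2: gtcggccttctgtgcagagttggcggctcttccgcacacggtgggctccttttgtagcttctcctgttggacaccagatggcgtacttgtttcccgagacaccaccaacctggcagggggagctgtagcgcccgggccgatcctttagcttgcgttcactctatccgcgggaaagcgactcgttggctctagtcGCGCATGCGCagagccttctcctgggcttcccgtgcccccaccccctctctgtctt

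Of the motifs searched on both strands, the NRF1 motif (GCGCANGCG) was found in 19 of the 72 member windows (26.4%), in 6.26% of 27457 promoters of all genes and in 8.04% of 18999 promoters of protein-coding genes. The ETS motif (CCGGAAG) was found in 23 members (31.9%) against 9.22% of all and 11.2% of protein-coding promoters. The YY1 motif (AAGATGGC) was found in 13 members (18.1%) against 3.44% and 3.92%. The TATA motif (TATAAA) was found in 5 members (6.94%) against 14.3% and 13.1%. Member windows had a median GC content of 56.7%, protein-coding windows 55.3% and all windows 52.3%. In Ndufa11, overlapping NRF1 matches covered positions -97 to -82 from the start. Sdha held matches at -89 to -81 and -46 to -38, Uqcrc1 at -63 to -55 and -39 to -31, Atp5mc2 overlapping matches from -56 to -47, and Cox7a2l 1 match at -13 to -5. The window of Ndufb10 held a match that begins at the start itself, outside the printed part, and those of Ndufab1, Atp5f1d and Ndufv1 held no match to any of the motifs. A match is a description of letters and not a measured binding site. At 3 days the log2 differences from controls ran from -0.47 to -0.02 (median -0.19) for the 19 members with an NRF1 match and from -0.46 to 0.48 (median -0.16) for the 53 without. The medians with and without a match were -0.16 and -0.17 for ETS, -0.22 and -0.16 for YY1, and -0.19 and -0.17 for TATA. Whether members with and without a match differ was not tested.

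The dissected material carried a neuronal profile: all 10 neuronal markers listed (among them Snap25, Syt1, Nefm and Rbfox3) were detected on every array, with a summed intensity of 21927 to 25223. Glial markers were present too, and none of them stood at the lowest value of the table. Over all arrays the summed intensity of 7 astrocyte markers was 7257 to 11930. That of 7 oligodendrocyte markers was 7079 to 10823. The summed intensity of 11 microglia and macrophage markers was 2023 to 5736 in the 4-day controls and 2232 to 3093 over the later controls. After transection it was 6996 to 9497 at 3 days, then 4997 to 6976 and 3882 to 5169 over the next times, and 3541 to 3805 at 1 month. The array medians of intensity ran from 73.6 to 81.3, with all arrays of the 1-month groups between 73.6 and 75.6. The arrays of 4-day controls 3 and 4 had the lowest quality weights, 0.33 and 0.48. Members were among the more abundant transcripts, with mean log2 intensities of 5.91 to 12.67 (median 10.72), against a median of 6.28 over all probes, and 80 of the 82 lay above that median.

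At 3 days after transection, respiratory chain transcripts stood lower in the dissected material almost throughout, by small amounts. Of the 82 members 79 had a lower mean than in the 4-day controls and 3 a higher one, with a median log2 difference of -0.161, against -0.008 over all tested probes and -0.020 over the 13671 probes above the median intensity. Of all tested probes 52.4% had a lower mean, and of those above the median intensity 54.8%. In limma's test with Benjamini-Hochberg adjustment 4 members passed an adjusted p of 0.05, and all 4 fell: Ndufab1, Ndufb10, Ndufa8 and Ndufa11, which belong to complex I. Of all tested probes 0.886% were called lower at this threshold. At an unadjusted p of 0.05, 41 members were lower, where 6.94% of all probes were, and 1 was higher. The arrays of the 2 groups did not overlap, with 3 days lower, for 18 members and for 2.76% of all probes. Among the 13671 probes above the median intensity, 198 were called lower, 1385 were lower at the unadjusted p and 531 lay lower without overlap. Members were measured on the same arrays, so that these counts describe one set of 8 animals and not 82 independent measurements.

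**Figure D1:**
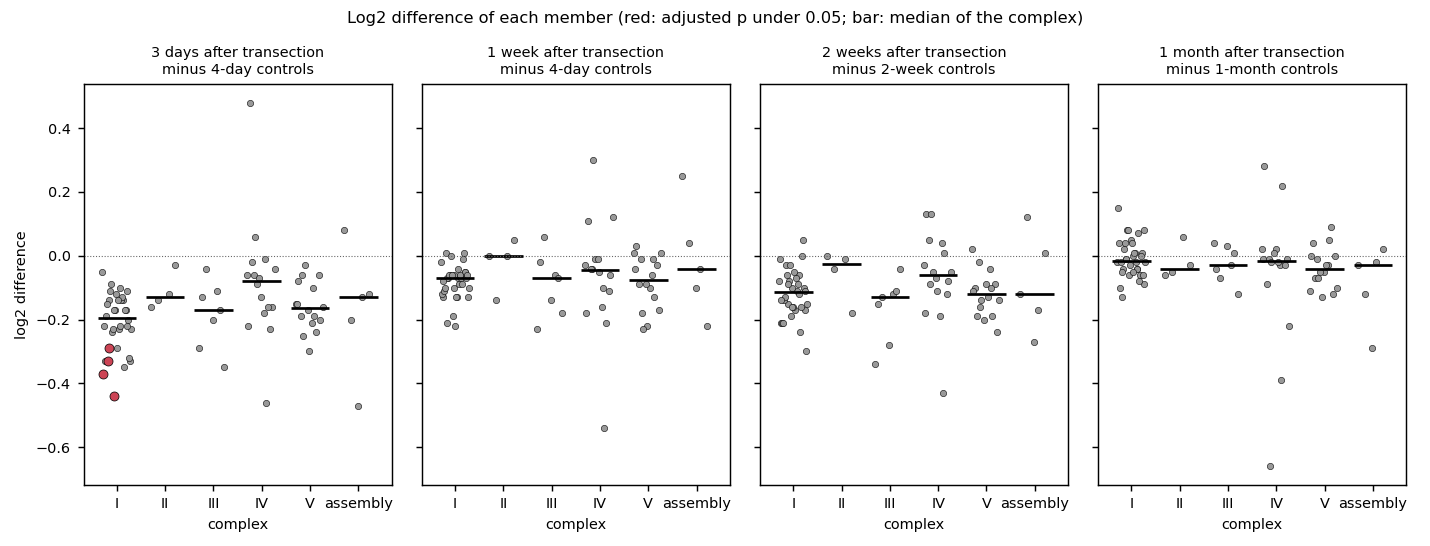
Log2 difference of each of the 82 members from the matched controls (vertical axis) by complex (horizontal axis) at the 4 times after transection, with n = 4 against 4 at 3 days and 1 week and 2 against 4 at 2 weeks and 1 month. Each point is 1 gene, red points passed an adjusted p of 0.05 and bars are medians: the 4 red points all lie in complex I at 3 days, where the median was -0.191, and the medians at 1 month lie near 0.

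Complex I takes electrons from NADH. All 34 of its members were lower at 3 days, with differences from -0.44 to -0.05 and a median of -0.191, and 20 reached an unadjusted p of 0.05. Ndufab1, the mitochondrial acyl carrier protein, which is also a complex I subunit, read 9.03, 9.13, 9.37 and 9.27 (log2 intensity, animals 1 to 4) at 3 days and 9.62, 9.46, 9.79 and 9.68 in the 4-day controls. Every 3-day animal lay below every control, and the difference was -0.44 (SE 0.0962, adjusted p = 0.0146, limma), or 0.74-fold.

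Ndufb10, an accessory subunit of the membrane arm, read 10.34, 10.15, 10.51 and 10.08 at 3 days and 10.51, 10.57, 10.77 and 10.71 in the controls. Animal 3 met the lowest control, and the other 3-day animals lay below all controls. The difference was -0.37 (SE 0.0887, adjusted p = 0.0250, limma).

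Ndufa8, an accessory subunit with paired cysteine motifs, read 10.36, 10.32, 10.49 and 10.23 at 3 days and 10.72, 10.58, 10.53 and 10.89 in the controls. The groups did not overlap, and the difference was -0.33 (SE 0.0858, adjusted p = 0.0386, limma). Ndufa11, a membrane arm subunit, read 10.69, 10.45, 10.69 and 10.65 against 10.96, 10.94, 10.85 and 10.89. Its groups did not overlap either, and its difference was -0.29 (SE 0.0748, adjusted p = 0.0385, limma).

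**Figure D2:**
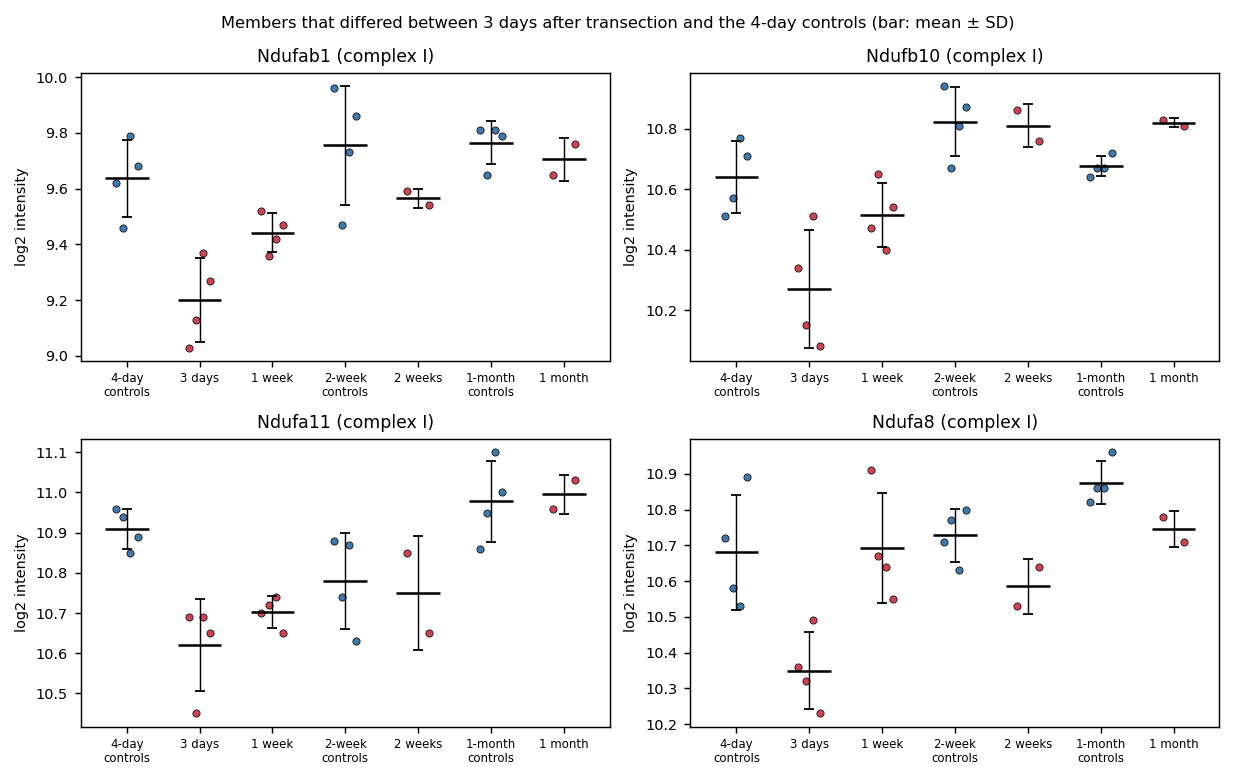
Log2 intensity (vertical axis) on each array of the 7 groups (horizontal axis) for the 4 members called at 3 days, with controls in blue, transected animals in red and bars for the mean ± SD. The 3-day points of Ndufab1, at 9.03 to 9.37, lie below its 4-day controls, at 9.46 to 9.79, and its 1-month points lie among those of their controls.

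The subunits of the catalytic core of complex I were lower too, mostly by smaller amounts, and none passed the adjusted threshold. Ndufs7, an iron-sulphur subunit near the ubiquinone site, differed by -0.32 (adjusted p = 0.115) and Ndufs1, the largest iron-sulphur subunit, by -0.22 (adjusted p = 0.260). The flavoprotein subunits Ndufv1, which binds NADH, and Ndufv2 differed by -0.15 and -0.17, and Ndufs3 and Ndufs8 by -0.17 and -0.14. Next after the 4 called subunits came the accessory subunits Ndufa5 at -0.24 (adjusted p = 0.0635), Ndufa6 at -0.33 (adjusted p = 0.0786) and Ndufb6 at -0.35 (adjusted p = 0.0887). The smallest difference in the complex was that of Ndufa1, -0.05. Ndufa4 is counted here by its symbol, although its protein is now placed in complex IV, and Ndufs6-ps1 carries a pseudogene symbol for a probe annotated to the Ndufs6 transcript. They differed by -0.14 and -0.09.

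None of the members of the other complexes passed the threshold at 3 days. In complex II, which links the tricarboxylic acid cycle to the chain, the 4 subunits differed by -0.16 (Sdha, which binds the flavin), -0.12 (Sdhb, the iron-sulphur subunit), -0.14 (Sdhc) and -0.03 (Sdhd), the last pair being the membrane anchors. The range over 4 arrays of the mean level of complex II was -0.17 to 0.19 in the 4-day controls and -0.16 to -0.07 at 3 days, so the 3-day animals lay inside the spread of the controls.

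All 7 members of complex III were lower (median -0.166), and 5 reached an unadjusted p of 0.05. The core protein Uqcrc2 differed by -0.35 (SE 0.12, adjusted p = 0.123) and the small subunit Uqcr11 by -0.29 (adjusted p = 0.124). Uqcrfs1, the Rieske iron-sulphur protein, differed by -0.20 (adjusted p = 0.273), while Uqcrc1, the partner of Uqcrc2 in the core, differed by only -0.04 (adjusted p = 0.906). The mean level of complex III was -0.17 to -0.12 on the 3-day arrays and -0.04 to 0.16 on the 4-day control arrays, without overlap.

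Complex IV, cytochrome c oxidase, was the least uniform. Of its 16 members 14 were lower (median -0.080). The higher ones, Cox6a2 and Cox8c, and the lowest, Cox8b, had low mean log2 intensities of 7.24, 5.98 and 6.41. The median over all probes was 6.28. Also counted is Cox6c-ps1, a pseudogene symbol with the lowest mean of all members, 5.91. Cox8a, the ubiquitous form of subunit VIII, read 11.04, 10.98, 11.17 and 11.07 at 3 days and 11.34, 11.26, 11.24 and 11.31 in the controls. The groups did not overlap, and the difference of -0.22 (SE 0.0632) had an adjusted p of 0.0635 in limma, just outside the threshold. The abundant subunits Cox4i1 and Cox5a differed by -0.06 each, and Cox5b by -0.16.

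Isoforms of complex IV with low intensity varied more between the 4-day controls than the abundant isoforms Cox6a1 and Cox8a. The SD there was 0.476 for Cox6a2 and 0.0249 for Cox6a1. Cox6a2, known as the heart and muscle form of subunit VIa, read 7.81, 7.60, 7.35 and 8.08 at 3 days and 7.93, 6.96, 6.91 and 7.14 in the 4-day controls. Its difference of 0.48 (SE 0.23, adjusted p = 0.344) was the highest of all members and the groups overlapped through control 1, while its ubiquitous counterpart Cox6a1 differed by -0.13 (SE 0.0495, adjusted p = 0.203) without overlap. Cox8b, the muscle form of subunit VIII, differed in time order by -0.46, -0.54, -0.43 and -0.39, with standard errors of 0.28, 0.28, 0.34 and 0.34. None of these passed, and the average of the 4 was -0.45 (SE 0.17, adjusted p = 0.373). Cox4i2, Cox6b2 and Cox8c, with group means of 5.32 to 6.96, differed at 3 days by -0.01, -0.16 and 0.06.

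In complex V all 16 members were lower at 3 days (median -0.168), and 8 reached an unadjusted p of 0.05. The subunits of the catalytic head, Atp5f1a, Atp5f1b and Atp5f1c, differed by -0.15, -0.10 and -0.06. The small subunit Atp5f1e differed by -0.30 (SE 0.0986, adjusted p = 0.108), Atp5me by -0.21 and the stalk subunit Atp5po by -0.25. Atp5mc1, Atp5mc2 and Atp5mc3, which encode the same ring subunit, differed by -0.24, -0.03 and -0.16. Atp5if1, an inhibitor of ATP hydrolysis that shares the symbol stem, differed by -0.08. Among the 5 assembly factors the complex II factor Sdhaf3 stood lowest, at -0.47 (SE 0.15, adjusted p = 0.0933).

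Several genes had more than 1 probe. Besides the chosen probes, 11 further probes of 10 member genes passed the filter, and 10 of the 11 were lower at 3 days. The exception was a further probe of Atp5mc2, at 0.10 against -0.03 for the chosen probe. In later comparisons the probes of Ndufv3, a small flavoprotein subunit, parted. Its further probe read 0.44 against -0.03 at 2 weeks and -0.37 against 0.08 between the 2-week and 4-day controls. Between the 1-month and 2-week controls the further probe was called (0.40, adjusted p = 0.0406, limma) and the chosen one was not (-0.08, adjusted p = 0.502).

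The called differences depended on single arrays, while the direction of the set did not. Without 3-day animal 1, 2 or 4 only 1 member was called in each case, without 3-day animal 3 there were 10, and without 4-day control 1 or 4 there were 2 and 1. Without 4-day controls 3 and 4 together none was called, 72 of 82 members were lower, and the median was -0.094. Ndufab1 kept its call in 23 of 24 fits that left out 1 array and lost it without 3-day animal 1 (-0.38, adjusted p = 0.0571, limma). In the fit of the 8 arrays alone no member passed (smallest adjusted p among these 4 genes 0.202), and in the fit with all 12 controls pooled 37 did, 36 of them lower. The share of all probes called in these other fits was not computed, so their counts cannot be set against a background.

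Other genes of the pathway were described from lists. The 21 other assembly factors that were listed and tested, none of them a member, had a median of -0.144, and 1 fell: Ecsit, a complex I assembly factor that also acts in immune signalling (-0.44, SE 0.0945, adjusted p = 0.0112, limma). All 13 genes of the tricarboxylic acid cycle and pyruvate dehydrogenase were lower (median -0.135) and none passed, with Suclg1 at -0.28 (adjusted p = 0.0635) and Mdh2 at -0.24 (adjusted p = 0.0719) the nearest. Of 14 electron carriers, transporters and related genes, the member Atp5if1 included, 1 rose, the uncoupling protein Ucp2 (0.81, SE 0.21, adjusted p = 0.0402, limma), a gene that microglia also express, and cytochrome c (Cycs) differed by -0.15 (adjusted p = 0.405). None of 19 regulators of mitochondrial biogenesis passed: Ppargc1a, a coactivator of these genes, differed by -0.10, Nrf1 by -0.13, Tfam by -0.04 and Gabpa by 0.20.

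Markers of other cells moved in the same comparison. All 11 microglia and macrophage markers were higher at 3 days (median 1.147) and 8 rose, with summed levels that did not overlap between the groups. Of the 10 neuronal markers 8 were lower (median -0.073, range -0.46 to 0.34). Among them Rbfox3 had fallen by 0.40 and Tubb3, a tubulin that axotomized neurons are known to induce, had risen by 0.34. At the adjusted threshold 465 of all 23240 tested probes were called higher and 206 lower. Of 7 astrocyte markers 5 were lower (median -0.203, range -0.45 to 0.91), and 1 was called lower. Among the 7 oligodendrocyte markers 4 were higher (median 0.007, range -0.17 to 0.78), and 1 was called higher. The part of this shift in the lower levels of the respiratory chain was not tested.

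One week after transection the members stood closer to the same controls. Of 82 members 67 were lower, where 50.2% of all tested probes were. The members' median was -0.064, and none passed limma's adjusted threshold, as none of all tested probes did (0%). The direction rested on the controls: without 4-day controls 3 and 4 the median was 0.002 with 41 members lower, and without 4-day control 2 it was -0.111. An unadjusted p of 0.05 was reached by 8 members, all lower, where 2.28% of all probes were lower at that p, with Cox8a (-0.18, SE 0.0632) and Ndufa11 (-0.21, SE 0.0748) first. Microglia and macrophage markers were higher by a median of 0.469, and none of the 11 passed. Comparing 3 days directly with 1 week, which needs no control, 74 members were lower at 3 days (median -0.085) and 1 was called: Ndufa8, whose 1-week arrays read 10.91, 10.67, 10.64 and 10.55. Its 3-day arrays, 10.23 to 10.49, lay below all of these, and the difference was -0.34 (SE 0.0858, adjusted p = 0.0347, limma). Of all probes 53.5% were lower in that comparison and 0.542% were called lower. Lower without overlap were 6 members and 688 of all 23240 probes. The call was lost without any 1 of 3-day animals 1, 2 and 4 or 1-week animals 1, 2 and 4, which gave no called member, and 3 were called without 3-day animal 3. For Ndufab1 the same comparison gave -0.24 (adjusted p = 0.260), and for Ndufa11 -0.08 (adjusted p = 0.756).

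At 2 weeks, with 2 transected animals against the 2-week controls, 72 members were lower, where 50.5% of all probes were. The members' median was -0.108 against -0.002 over all probes, and none of the members passed in limma, as none of all probes did (0%). An unadjusted p of 0.05 was reached by 7, all lower, where 1.76% of all probes were lower at that p. They included 3 members of complex III: Uqcr11 (-0.34, SE 0.12), Uqcrfs1 (-0.28, SE 0.10) and Uqcrh (-0.15, SE 0.0688). Uqcr11 read 10.68 and 10.57 in the transected animals and 11.05, 11.09, 10.93 and 10.80 in the controls, without overlap. With only 2 transected arrays, 24 members and 1818 of all 23240 probes were lower without overlap. The transected pair also differed within itself, as in Atp5f1d, which read 9.60 in one animal and 9.07 in the other. Microglia and macrophage markers were higher by a median of 0.755 here too, none called.

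One month after transection the members lay at the level of their controls, within the precision of 2 animals. Of 82 members 54 were lower, where 54.2% of all probes were. The members' median was -0.020 against -0.012 over all probes, and no member passed in limma, nor did any of all probes (0%). At an unadjusted p of 0.05, where 1.66% of all probes were lower, 1 member was lower: Cox8c, the testis form of subunit VIII, which read 5.08 and 5.56 against 5.66, 5.61, 6.04 and 6.63 (difference -0.66, SE 0.30). For the genes called at 3 days, the 1-month differences were -0.06 (SE 0.12) for Ndufab1, 0.15 (SE 0.11) for Ndufb10, -0.13 (SE 0.11) for Ndufa8 and 0.02 (SE 0.0916) for Ndufa11. Whether these differ from the 3-day differences was not tested.

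Averaged over the 4 times, each against its matched controls, 80 of 82 members were lower (median -0.085), where 53.2% of all probes were (median -0.006). At an unadjusted p of 0.05, 34 members were lower, where 3.78% of all probes were, and no member passed the adjusted threshold in limma. Of all probes 0.404% were called, in either direction. The smallest adjusted p-values were those of Cox8a (-0.15, SE 0.0387, adjusted p = 0.120) and Ndufab1 (-0.22, SE 0.0589, adjusted p = 0.129). A 2-factor analysis of variance of the kind in the study's methods called 2 members, both lower. In it the 4-day control arrays were entered again for the second early time, as if they were further animals. Its p-values are therefore too small, and the share of all probes it called was not computed.

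**Figure D3:**
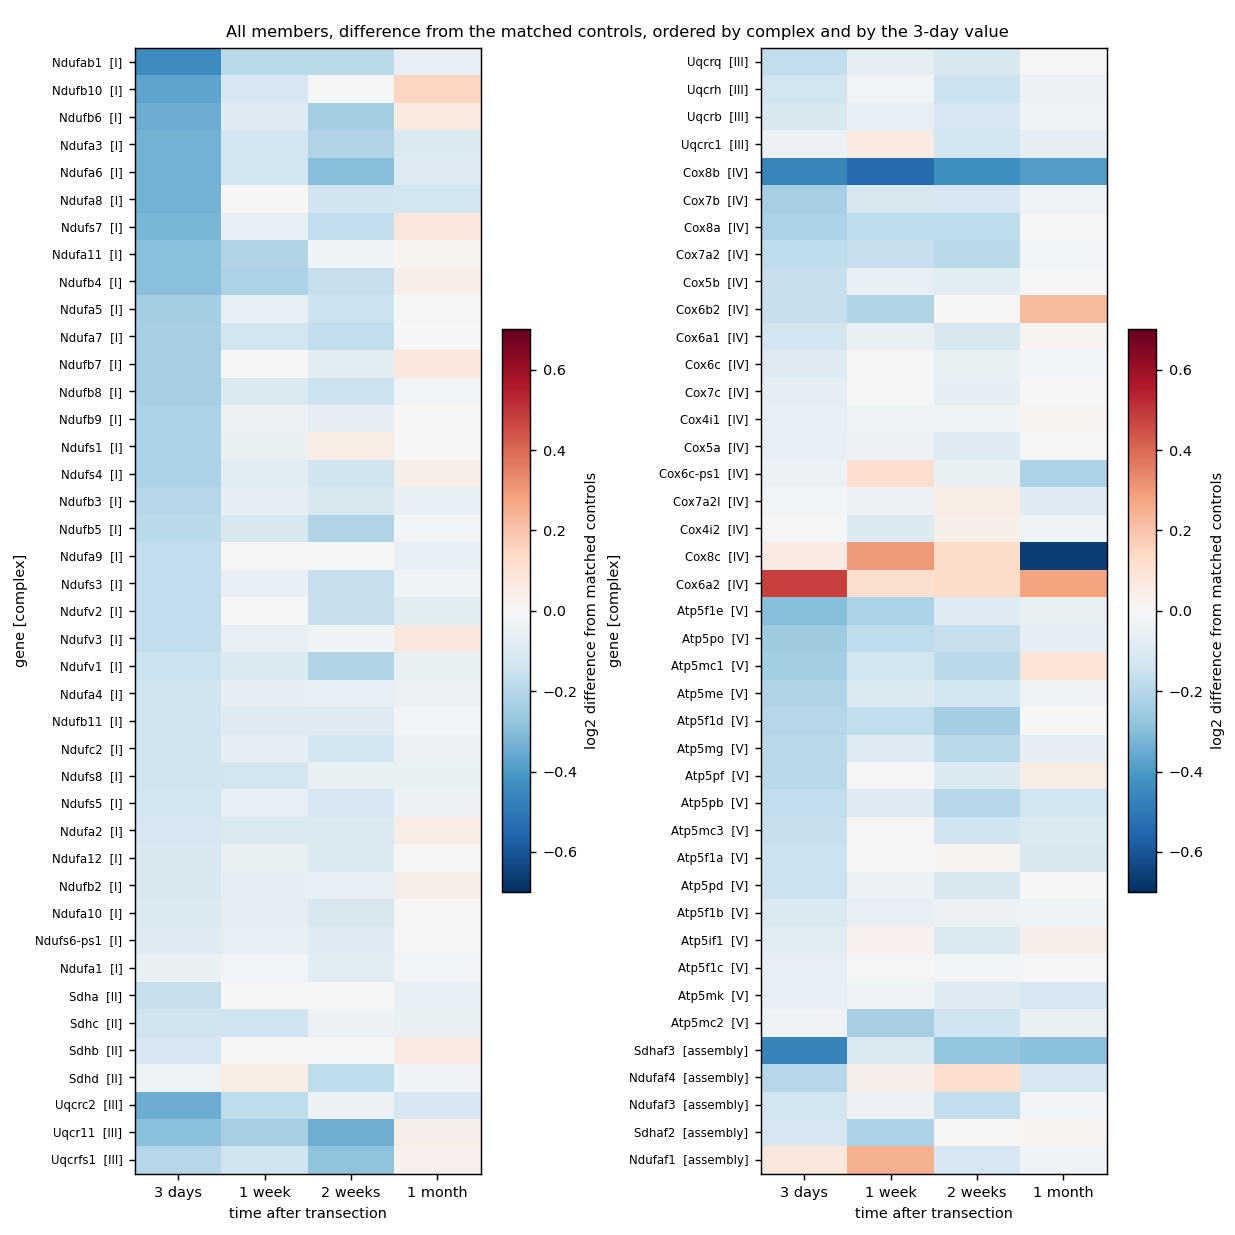
Log2 difference from the matched controls (colour, blue lower and red higher, scale -0.7 to 0.7) of all 82 members (rows, with the complex in brackets) at the 4 times after transection (columns). The 3-day column is blue for 79 genes. The strongest colours belong to the low-level isoforms Cox8c, Cox8b and Cox6a2 of complex IV. The assembly factor Sdhaf3, at -0.47, and Ndufab1 of complex I, at -0.44, come next, at 3 days.

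By array, the mean level of the 82 members relative to each probe's own mean was -0.17, -0.18, -0.09 and -0.14 at 3 days. In the 4-day controls it was 0.00, -0.07, 0.06 and 0.10, above all 3-day arrays. For complex I alone the groups overlapped, since 3-day animal 3 (-0.07) lay above 4-day control 2 (-0.11), while the other 3-day animals were at -0.23, -0.27 and -0.22. The 1-week arrays lay between -0.08 and 0.00 over all members, the 2-week transected arrays at -0.05 and -0.04, and the 2-week controls between 0.00 and 0.12. The 1-month transected arrays, at 0.08 and 0.07, lay within the range of the 1-month controls, 0.06 to 0.15.

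**Figure D4:**
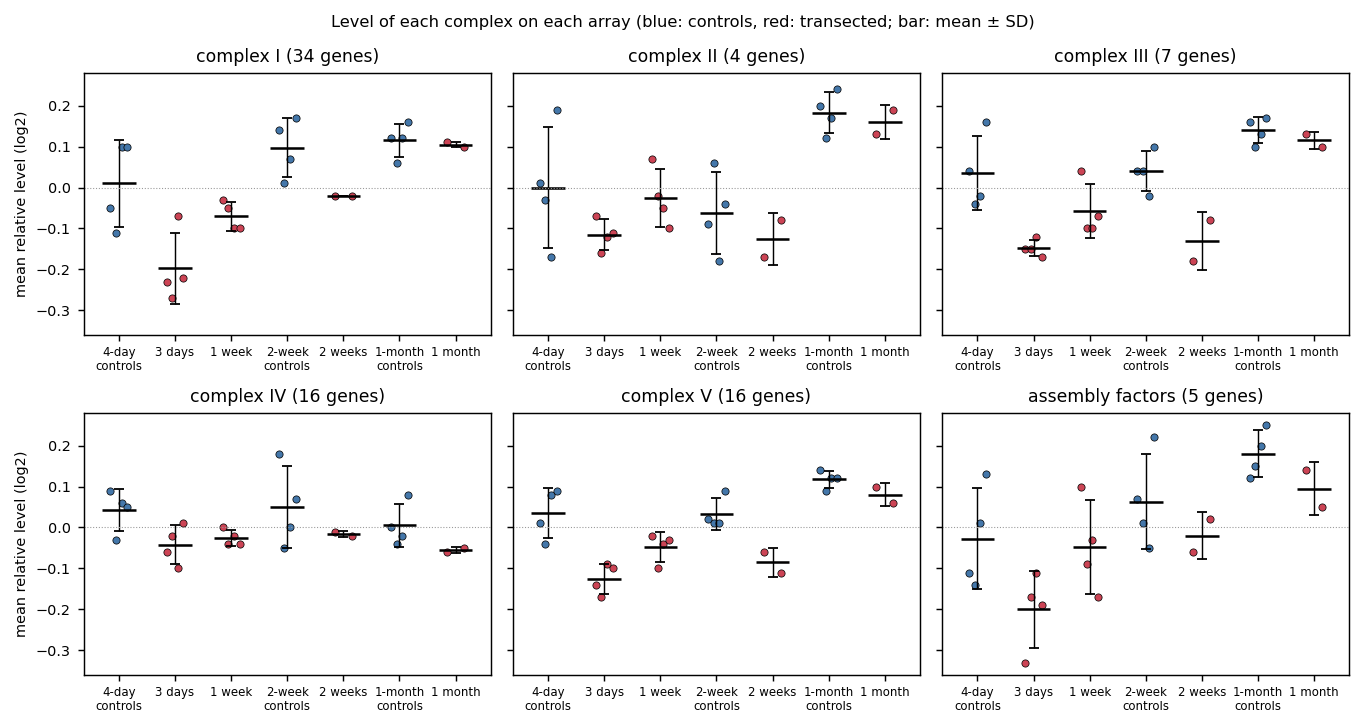
Mean level of each complex (log2, relative to each probe's mean over all arrays, vertical axis) on each of the 24 arrays by group (horizontal axis), with controls in blue, transected animals in red and bars for the mean ± SD over the animals of a group. In complex I the 3-day arrays reach from -0.27 to -0.07, and in complexes II, III and V the arrays of both 1-month groups, controls and transected, lie above most of the others.

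The control groups differed among themselves, in time since labelling and in age at dissection. Between the 2-week and 4-day controls 60 members were higher in the former (median 0.056), and between the 1-month and 4-day controls 65 were (median 0.067). Over the 13671 probes above the median intensity, where 80 of the members lie, the medians were -0.025 in the first comparison and 0.043 in the second. Of these probes 6118 were higher in the first and 8162 in the second. Without 4-day control 2 the members' medians were 0.015 and 0.038, and without 4-day controls 3 and 4 they were 0.121 and 0.138. No member passed in limma in either comparison, where 0% and 0.0043% of all probes did. At an unadjusted p of 0.05 there were 5 members higher and 4 lower in the first, where 7.03% and 7.23% of all probes were, so neither count stood above the background. In the second there were 14 higher and 1 lower, where 6.78% and 6.41% of all probes were. Of the 13671 probes above the median intensity, 1469 were higher and 797 lower at that p in the second. Without 4-day control 3 the first comparison called 2 members, and without 4-day control 4 the second called 6.

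Between the 1-month and 2-week controls 8 members rose: Atp5f1d, Atp5mc2, Atp5f1a, Sdha, Ndufv1, Uqcr11, Uqcrc1 and Cox7a2l. Of all probes 6.18% were called higher in this comparison, so 8 of 82 is near the background. The median over the members was 0.007, with 43 higher and 39 lower, against 0.073 over the probes above the median intensity. Higher without overlap were 14 members, 2458 of all 23240 probes and 2396 of the 13671 above the median intensity. Atp5f1d, the delta subunit of the ATP synthase stalk, read 10.03, 10.10, 10.14 and 10.04 in the 1-month controls and 9.66, 9.77, 9.44 and 9.41 in the 2-week controls. The groups did not overlap, and the difference was 0.51 (SE 0.11, adjusted p = 0.00943, limma). Its 1-month transected arrays read 10.07 and 10.09, at the level of the 1-month controls.

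Sdha, the flavoprotein of succinate dehydrogenase, read 9.13, 9.13, 9.26 and 9.33 in the 1-month controls and 8.70, 9.06, 8.41 and 8.70 in the 2-week controls (difference 0.49, SE 0.12, adjusted p = 0.0148, limma). Atp5mc2, an ATP synthase ring subunit, read 9.88, 9.88, 9.98 and 9.78 against 9.49, 9.46, 9.42 and 9.32 (difference 0.46, SE 0.0997, adjusted p = 0.0112, limma). Neither gene's groups overlapped, and the 1-month transected arrays read 9.09 and 9.21 for Sdha and 9.77 and 9.89 for Atp5mc2. The other 5 rose by 0.30 to 0.43: Cox7a2l, which takes part in supercomplex assembly, by 0.43, Uqcr11 by 0.36, Ndufv1 by 0.33, the alpha subunit Atp5f1a by 0.32 and Uqcrc1 by 0.30.

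**Figure D5:**
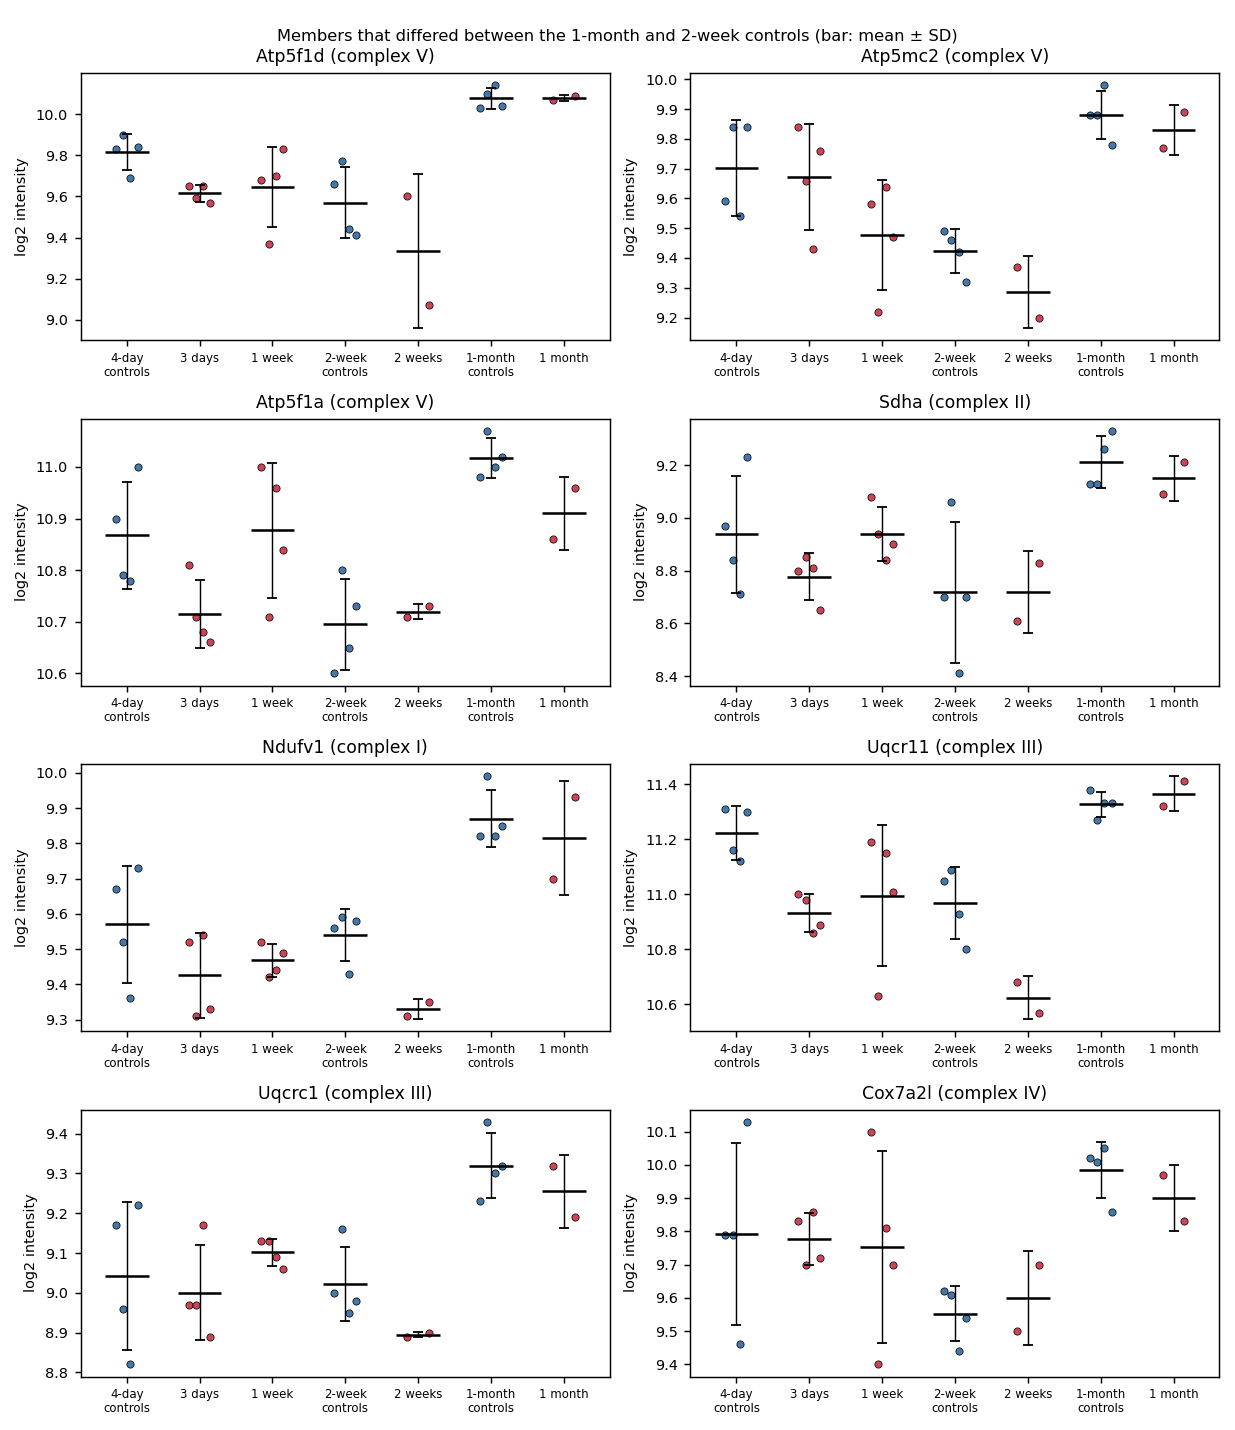
Log2 intensity (vertical axis) on each array of the 7 groups (horizontal axis) for the 8 members called between the 1-month and 2-week controls, with controls in blue, transected animals in red and bars for the mean ± SD. In each panel the 1-month controls lie above the 2-week controls without overlap, as in Atp5f1d at 10.03 to 10.14 against 9.41 to 9.77. The genes shown were picked by their call in this comparison, in which 2458 of all 23240 probes lay higher without overlap.

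In the same comparison the 1-month control arrays had lower medians (73.6 to 75.6) than the 2-week control arrays (78.6 to 80.7). Another quantile normalization left 3 of the 8 members called and cyclic loess 2, while centring each array on its median gave 16. Without 2-week control 3 there were 3, and without 2-week control 4 or 1-month control 2, 3 or 4 there were 5. Genes of the tricarboxylic acid cycle were higher in 13 of 13 (median 0.211) and 6 rose, with Ogdh, a subunit of 2-oxoglutarate dehydrogenase, at 0.77 and citrate synthase (Cs) at 0.38. Neuronal markers were higher in 7 of 10 (3 rose, Syp by 0.54) and the 7 astrocyte markers in all (2 rose). Microglia and macrophage markers were lower in 8 of 11, none called. Among the 13671 probes above the median intensity, 8306 were higher in this comparison and 1412 were called higher. The part of array scaling or of these cells in the difference was not tested, and the time since labelling and any order in which arrays were run cannot be told apart.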

How the data were processed

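RNA of laser-dissected TPS neurons was amplified and hybridised by the authors to 24 Affymetrix rat gene arrays. Per the submitters' processing notes and the study's methods, the authors normalized the arrays by RMA in GeneSpring, and the deposited values are on a linear intensity scale with a floor of 17. Their log2 was taken here. The raw images were not used, so no background limit is known, and precision is set by how many arrays a group has. The authors' gene annotation of the platform gave 1 symbol for 15097 probes, several for 323 and none for 11922, and only probes with 1 symbol could be members. Symbols were grouped by complex, and the assembly factors kept apart.

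Groups followed the sample labels. The study's own table counts the control times from labelling, with the days of tracer transport added. Group means over all 24 arrays were estimated by limma (version 3.58.1, R 4.3.3, empirical Bayes, prior degrees of freedom 3.64, residual 17) over the 23240 probes above the lowest 15 percent of mean log2 (5.05), with Benjamini-Hochberg adjustment within each comparison and a threshold of 0.05. P-values measure the spread between animals. The fit was tested on simulated data. Named genes were every called member, the core subunits, the tissue isoforms and, for each complex and time, the member with the smallest p in each direction, with next-ranked members added after their values were seen. Members, lists and the doubt about 4-day controls 3 and 4 were chosen with earlier results of these data known. Replicate numbers did not pair the animals (mean correlation of deviations 0.0215 over 55 same-number pairs and -0.00631 over 189 others). Motifs were searched in RefSeq promoters matched by gene. Other settings were tried as described under the dependence on processing.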

Additional observations from a re-analysis of the deposited data

Results flagged for a closer look

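Over 95 groups of 4 arrays, 2 had an array whose gap to its neighbour was large for the group's range, where chance gives about a twentieth of groups. In the mean level of all 82 members, 1-week animal 1 stood at 0.00 above the others at -0.08, -0.07 and -0.06 (gap over range 0.844). In Ndufab1, 1-month control 2 stood at 9.65 below 9.79, 9.81 and 9.81 (gap over range 0.856). Ndufa8 was the member whose difference from the shared controls changed between 3 days and 1 week by the direct test, by -0.34 on the log2 scale (adjusted p = 0.0347, limma).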

How the results depend on the processing

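No result changed direction while called under any alternative. Counts of called members below are out of 82 unless a filter says otherwise. The share of all probes called was computed for the main fit only, so counts under the alternatives have no background beside them.

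At 3 days (4 called) the count was 10 with an intensity trend and robust moderation, 12 after another quantile normalization, 37 with all controls pooled, 0 in the fit of the compared groups alone, 0 without 4-day controls 3 and 4, 0 by the methods' t-test after adjustment, and 1 to 10 when single arrays were left out. Between 1-month and 2-week controls (8 called) it was 14 with array weights, 3 after quantile normalization, 2 after cyclic loess, 16 after median centring, and 3 to 9 without single arrays. Between 3 days and 1 week (1 called) it was 2 after quantile normalization and 0 after median centring, in the compared groups alone, with the replicate block and by the methods' t-test, and 0 to 3 without single arrays. Between 2-week and 4-day controls (0 called) it was 1 with array weights, 1 without 4-day controls 3 and 4, and 0 to 2 without single arrays. Between 1-month and 4-day controls (0 called) it was 1 without 4-day controls 3 and 4 and 0 to 6 without single arrays. For the average effect (0 called) it was 1 with the intensity trend, 1 with array weights, and 0 to 1 without single arrays, where 2-week control 2 made the difference. It was 2 by the analysis of variance that entered the 4-day controls again for the second early time. No member was called at 1 week, 2 weeks or 1 month under any setting.

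The replicate block left the counts at 4 for 3 days and 8 for the controls and ended the call of Ndufa8 between 3 days and 1 week (-0.38, adjusted p = 0.0522, limma). The median of the members ranged from -0.212 to -0.094 at 3 days and from -0.111 to 0.002 at 1 week. The value of -0.111 came without 4-day control 2, and that of 0.002, with 41 members lower, without 4-day controls 3 and 4. Groups of 2 animals limit what could be called at 2 weeks and 1 month.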
